A study of Mus musculus with 4 samples.

Results

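The forkhead (Fox) genes were examined in mTEChi of the mouse, the subset of medullary epithelium in the thymus that is rich in MHC class II. Members were all genes whose symbol is Fox followed by 1 letter and a number, with Foxj1 left out of the set. This gave 43 genes, with 51 RefSeq IDs, of 23581 genes and unmatched IDs in the counts. For each gene the RefSeq ID with the most counts over the libraries was used, and all 43 genes passed the filter on low counts.

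RNA-seq was performed in a first and a replicate experiment, each of which gave 1 library with the label WT and another with the label Aire-KO. The thymi of 4 mice were pooled for a library, and cells were sorted for high I-A/E and for the lack of CD45 and Ly51. All mice were 4 weeks old. The WT animals were B6 mice that were bought in, and the Aire-KO animals carried the B6.129S2-Aire tm1.1Doi allele on the B6 background, from a line provided to the authors. The sources do not describe the animals as littermates, and each value below belongs to a pool and not to 1 mouse. The labels give no agent for either group. With 2 pools per genotype, the p-values measure only the spread between these pools.

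Forkhead factors bind DNA through a winged-helix domain of which the third helix lies in the major groove, and several of them open closed chromatin for other factors. Members direct the development of endoderm, inner ear, kidney, retina, gut mesenchyme and ovary, and Foxn1 is required for the thymic epithelium itself. mTEChi transcribe many genes of peripheral tissues, in part through Aire, so that in these cells a forkhead gene may be a working regulator of the epithelium or a tissue-restricted transcript. In bulk RNA, fewer cells that transcribe a gene and less RNA per cell cannot be told apart.

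A part of the recognition helix that most of these genes share is short enough to show. The 30 coding bases below open with the codon of the asparagine that starts the conserved end of the recognition helix, and the capitals mark the codons for its arginine, histidine and asparagine. They are given for the called genes Foxn4, Foxi2 and Foxi1 beside the thymic regulator Foxn1, the most abundant member Foxp4, and Foxp3, whose reads are examined further on. All are in coding exons, read 5′ to 3′ on the gene's strand from the mm9 genome with GENCODE vM1 transcripts, at chr5:114708674-114708703 (minus), chr7:142602554-142602583 (plus), chr11:34107508-34107537 (minus), chr11:78175085-78175114 (minus), chr17:48008271-48008300 (minus) and chrX:7170026-7170055 (plus) in this order.
Foxn4: aactccgtgAGGCACAACctgtccctgaac
Foxi2: aactccatcCGCCACAACctgtcgctcaat
Foxi1: aactccatcCGCCACAACctgtcactcaac
Foxn1: aattctgttCGCCATAACctgtccctcaac
Foxp4: aatgccgtgCGCCACAACctcagcctgcac
Foxp3: aatgccatcCGCCACAACctgagcctgcac
Against Foxn4, this stretch differed at 7 bases in Foxi2, 6 in Foxi1, 7 in Foxn1, 8 in Foxp4 and 9 in Foxp3. It was the same in Foxd3 and Foxd4, in Foxe1 and Foxe3, and in Foxf2 and Foxq1. In Foxa1, Foxa2, Foxa3 and Foxh1 no stretch with these residues so placed was found. At 30 bases the stretch is shorter than a read, so identity there does not by itself make reads shared. Because the reads were 50 bases long, pairs that share a run of 50 bases anywhere in their transcripts could share reads. Of the 42 forkhead genes with a coding transcript in the annotation, 2 pairs did so, Foxd3 with Foxd4 at 19 positions and Foxc1 with Foxc2 at 4, and their levels are uncertain by that much. Foxl1 had no such transcript there and was not checked.

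Library totals over 1 RefSeq ID per gene ran from 80971559 to 174095207 counts, and forkhead genes took 0.1 to 0.146% of them. Of 12 mTEChi markers, including Epcam, Cd74, H2-Aa and Fezf2, none was at 0 in a library. Aire itself had 87229 and 36597 counts in the WT libraries (first and replicate experiment, here and below) and 200697 and 175884 in the Aire-KO libraries, so both libraries labelled Aire-KO held more Aire reads (log2 fold change, WT over Aire-KO, −1.64, SE 0.46, adjusted p = 0.0888; 0.0012 with the experiment as a block). The deleted exons are not stated in the sources used here, and counts over the whole gene therefore do not check the labels. Aire is known to raise many transcripts in these cells. Of 20274 genes tested, 1312 were called higher with the WT label and 58 lower (edgeR, genotype alone). With the experiment as a block, 3164 were called higher and 1895 lower. These counts were not used to check the labels. WT and Aire-KO below mean the libraries so labelled.

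Levels were set per length, as reads per kilobase of transcript, scaled to the size of the library (RPKM). In the WT libraries 28 of the 43 genes reached 1 RPKM, in the Aire-KO libraries 23. Reads were found for all 43 genes in each WT library, and for 40 and 37 genes in the Aire-KO libraries. Over all libraries, 23 genes held 1 RPKM or more in every library, 15 stayed under 1 RPKM in every library, and 5 (Foxa2, Foxf1, Foxi1, Foxi2 and Foxn4) were above 1 RPKM in the WT libraries only. The median forkhead level was 3.08 and 2.50 RPKM in WT and 1.28 and 1.54 RPKM in Aire-KO. In the order of mean levels, all 42 pairs of neighbours had ranges over the libraries that overlapped, so the order is a description.

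**Figure D1:**
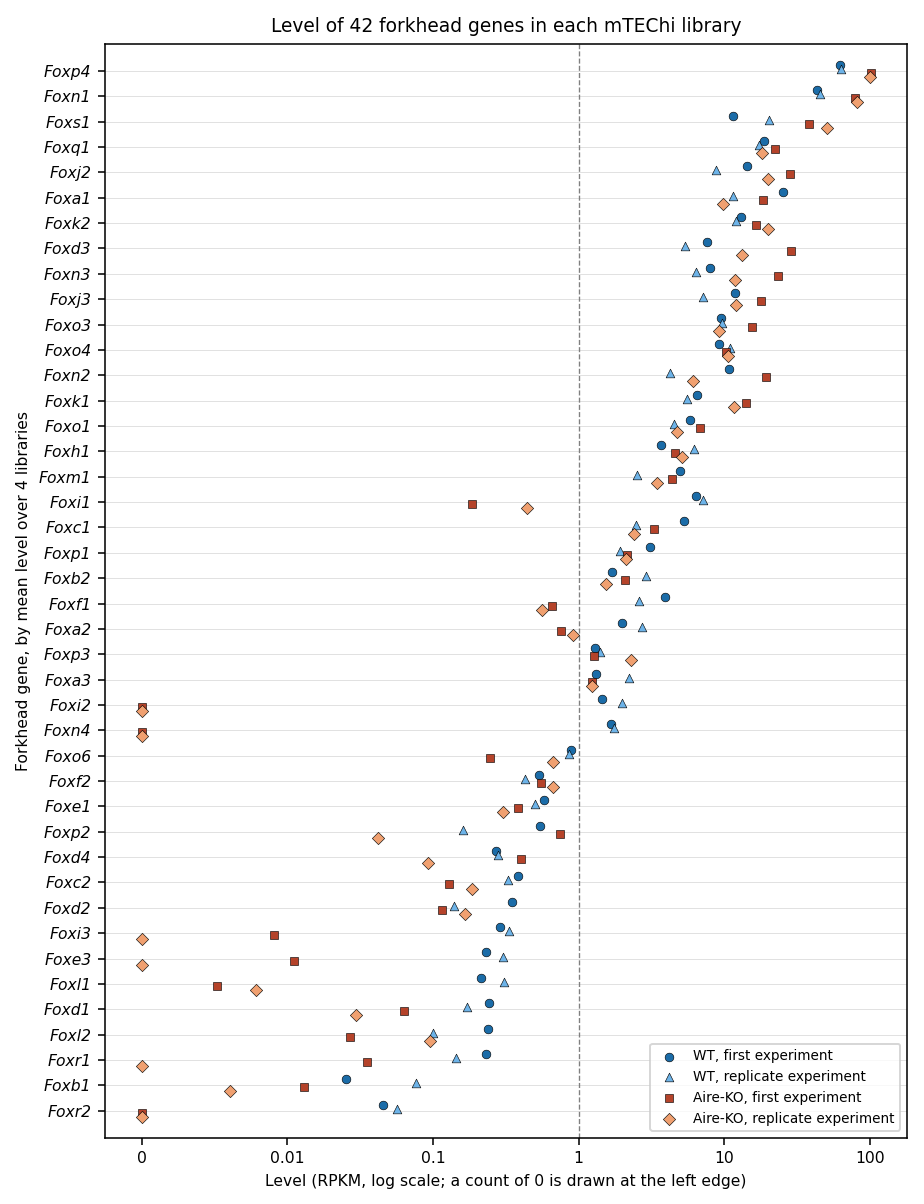
Level of 42 of the forkhead genes in RPKM (log axis, 1 row per gene, ordered by the mean over 4 libraries); each point is 1 library, blue for WT and red to orange for Aire-KO, and a count of 0 is drawn at the left edge. Foxp4 and Foxn1 head the order, and Foxn4 and Foxi2 sit between 1.45 and 1.99 RPKM in WT and at 0 in Aire-KO.

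To see which forkhead transcripts depend on the genotype, WT was compared with Aire-KO over all 4 libraries with edgeR's quasi-likelihood test. Foxi1, Foxi2, Foxl1 and Foxn4 were higher in WT, 4 of 43 genes (9.3%), and 0 were lower. Of all 20274 genes tested, 6.47% were called higher and 0.286% lower. At an unadjusted p under 0.05 there were 10 forkhead genes higher and 5 lower (17.9% and 3.85% of all genes), and DESeq2 called 7 higher and 2 lower (13.9% and 2.26% of all genes). The median log2 fold change was 0.22 over the forkhead genes and −0.03 over all genes. With library sizes alone in place of TMM these medians were 0.54 and 0.27. Each experiment held 1 library per genotype and the libraries of an experiment deviated together, so the fit with the experiment as a block is given as well. It called 7 forkhead genes higher (16.3%, against 15.6% of all genes) and 9 lower (20.9%, against 9.35%). Simulated counts of this design had the same spread (dispersion) for all genes and 50 genes changed at each fold. On them the test recovered 0% of 2-fold, 14% of 4-fold, 70% of 8-fold and 98% of 16-fold changes. The data differ in both settings, and smaller changes were called there, such as Lum (log2 fold change −1.75, edgeR, adjusted p = 0.0498). These shares therefore do not give the reach of the test on the data, and a gene that was not called may still differ.

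**Figure D2:**
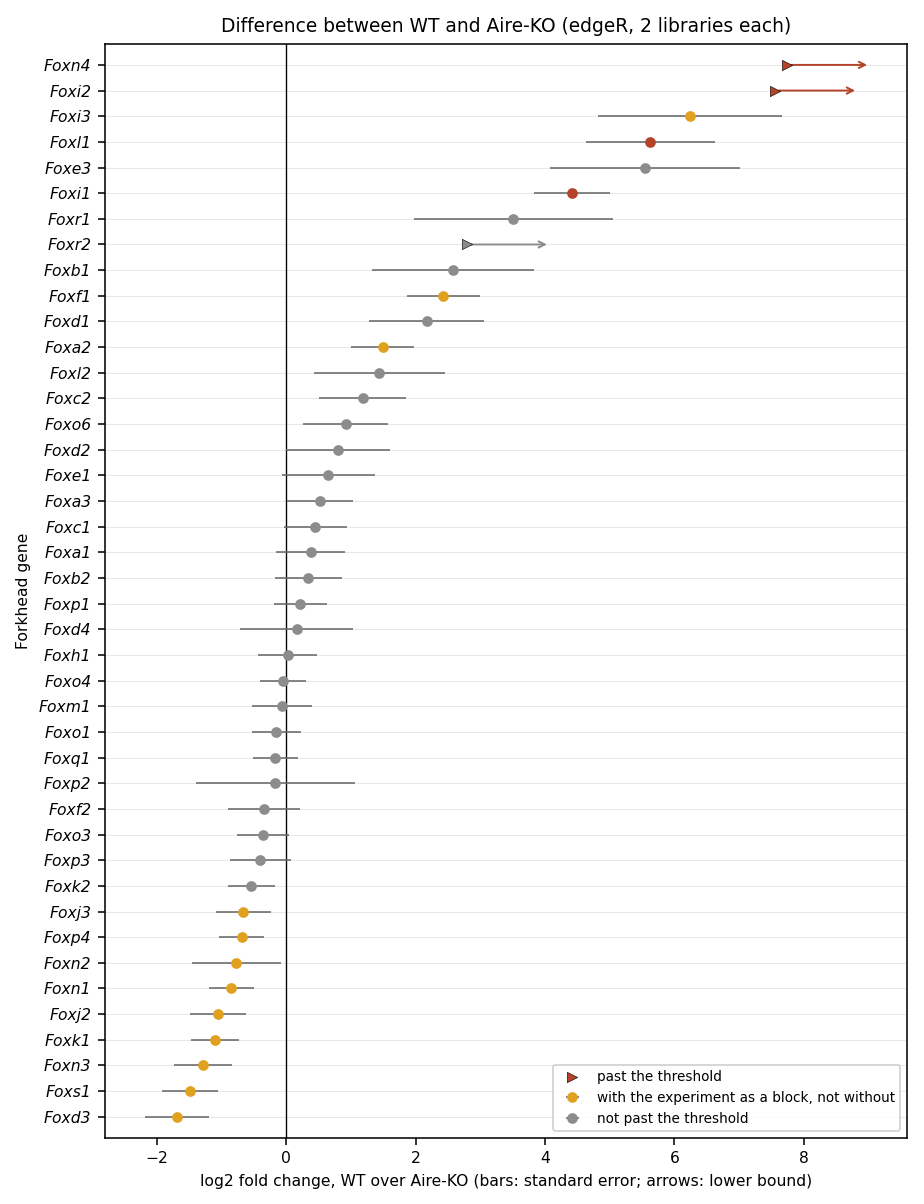
log2 fold change of 42 forkhead genes, WT over Aire-KO, from edgeR with genotype alone (points with SE; 2 libraries per genotype); triangles with arrows are lower bounds against 3 counts per library for the 3 genes at 0 in both Aire-KO libraries. Red marks Foxn4, Foxi2, Foxl1 and Foxi1, and yellow marks the 3 genes that were called higher, and the 9 called lower, with the experiment as a block but not with genotype alone.

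Foxn4 is a regulator of retinal progenitors and of spinal cord interneurons. On chr5:114704173-114723816 (minus strand), it had 779 and 456 counts in the WT libraries and 0 in both Aire-KO libraries. Its WT level was 1.66 and 1.76 RPKM, a mean of 1.71 ± 0.0702 RPKM (SD, n = 2). The groups did not overlap. Against a floor of 3 counts per library it was at least 214-fold higher in WT (edgeR, adjusted p = 0.0164). Its reads covered the gene: 33.5 and 29.2% of the WT reads fell in coding exons before the last, and 66.1 and 69.5% in the last exon.

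The 3 Foxi genes serve the ectoderm of the ear placodes and the branchial arches, and Foxi1 also the acid-secreting cells of kidney, inner ear and epididymis. Foxi2, on chr7:142602050-142605298 (plus strand), had 594 and 450 counts in WT and 0 in both Aire-KO libraries, which made it at least 188-fold higher in WT (edgeR, adjusted p = 0.0164). Foxi1, on chr11:34104338-34108089 (minus strand), had 2370 and 1467 counts in WT and 45 and 171 in Aire-KO. Foxi1 was thus the most abundant of the called genes, at 6.36 and 7.13 RPKM in WT and 0.186 and 0.44 RPKM in Aire-KO, with a log2 fold change of 4.42 (SE 0.59, adjusted p = 0.0188). Foxi3, a regulator of the ear and teeth, had 55 and 35 counts in WT and 1 and 0 in Aire-KO. No library of one genotype overlapped with the other for any Foxi gene. Both WT libraries likewise lay above both Aire-KO libraries for 29.1% of all genes tested. The Foxi3 ratio of summed counts, scaled to library size, was 98.0 with a 95% counting interval of 17.2 to 3914, and its adjusted p was 0.0544, or 0.0417 with the block (0.00486 to 0.279 over 11 alternatives). Foxn4, Foxi1 and Foxi2 were past the threshold in 11 of 11 alternatives, with adjusted p up to 0.0199 for Foxi1 and 0.0176 for the others. Genes at 0 counts in both Aire-KO libraries were 2.2% of all genes tested, and among the forkhead genes these were Foxn4, Foxi2 and Foxr2.

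Foxl1 and Foxf1 mark the mesenchyme under the gut epithelium, and they lie with Foxc2 in 1 cluster on chromosome 8, where 29.22 kb separate Foxf1 from Foxc2 and 9.048 kb separate Foxc2 from Foxl1. Foxl1 had 100 and 79 counts in WT and 1 and 3 in Aire-KO, a scaled ratio of 48.7 with a counting interval of 18.7 to 181 (log2 fold change 5.63, SE 1.0, edgeR, adjusted p = 0.0335). Leaving out either WT library lost the call, with adjusted p of 0.0701 (without the first) and 0.19 (without the replicate). Foxf1 had 660 and 242 counts in WT and 71 and 98 in Aire-KO. Both WT libraries were above both Aire-KO libraries, with a log2 fold change of 2.43 (SE 0.56) and an adjusted p of 0.0558, or 0.00864 with the block (0.000908 to 0.249 over the alternatives). Foxc2, a factor of lymphatic vessels and somites that stands between them, had 0.385 and 0.328 RPKM in WT and 0.129 and 0.185 in Aire-KO, and its log2 fold change of 1.18 (SE 0.67) did not pass (adjusted p = 0.401). Both WT libraries of Foxc2 were above both Aire-KO libraries, as was the case for 29.1% of all genes tested. Of the 3 genes of the cluster, 1 was called.
Some fibroblast markers were lower in WT. Of 12 fibroblast and pericyte markers, 0 were higher and 4 lower in WT, the matrix genes Dpt, Col1a2, Col3a1 and Lum (log2 fold change −2.12 to −1.75), and 7 were lower with the block. Of all genes 0.286% were called lower, and 9.35% with the block. The pericyte and smooth muscle markers Pdgfrb, Rgs5, Kcnj8 and Acta2 had log2 fold changes of −0.13 to −0.04 and adjusted p of 0.929 to 0.971, and Cspg4 had −1.63 (adjusted p = 0.0614; 0.00115 with the block). The median of the list was −1.52, and its summed level was 471 and 511 counts scaled to library size (CPM) in WT and 799 and 760 CPM in Aire-KO. Their part in the results on forkhead genes was not tested.

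The other forkhead genes with few reads in Aire-KO did not pass. Foxr2 and Foxr1, little-studied members with transcripts in the germ line, had 23 and 16 counts and 61 and 21 counts in WT, against 0 and 0 and 6 and 0 in Aire-KO. Foxe3, a factor of the lens, had 32 and 23 counts against 1 and 0, and Foxb1, of the diencephalon, had 12 and 20 against 4 and 2. Foxd1, of the kidney stroma, had 95 and 37 counts against 16 and 12. These 5 genes were grouped by their few Aire-KO reads, so their higher CPM in both WT libraries is not a separate result. Adjusted p values (edgeR) were 0.0721 for Foxr2, which was at least 6.92-fold higher in WT, 0.078 for Foxe3, and 0.227 to 0.312 for the others. Across the family, 17 genes had both WT libraries above both Aire-KO libraries, 10 had them below, and 16 overlapped. Of all genes tested, 29.1% lay entirely above and 20.9% entirely below.

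The genes known to work with these factors were set beside them in lists chosen with earlier results of these data known. Among 14 ionocyte genes tied to Foxi1, 4 were higher in WT and 0 lower, with a median log2 fold change of 1.73 against −0.03 over all genes. Among them were Atp6v1b1 and Atp6v0d2, proton pump subunits (log2 fold change 5.09 and 2.81), and the anion exchanger Slc4a1 (4.30). Atp6v1b1 had 783 and 509 counts in WT and 18 and 23 in Aire-KO. With the block 8 were higher and 0 lower. Among 16 partners of Foxn4 in retina and spinal cord, 4 were higher, namely Lhx3, Tal1, Gata2 and Neurod1, and 0 lower, with a median of 1.56. They are factors of motor neurons and V2 interneurons, and Neurod1 also of the retina. Lhx3 had 418 and 316 counts in WT and 27 and 20 in Aire-KO. With the block 7 were higher and 1 was lower, Neurod4, a factor of the retina (log2 fold change −2.21, adjusted p = 0.0962; 0.00335 with the block). With 6.47% of all genes called higher and 0.286% lower, and 15.6% and 9.35% with the block, these counts are a description only. The same holds for the counts of all other lists of partners and markers.

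Forkhead genes of endoderm, Foxa1, Foxa2 and Foxa3, are the pioneer factors of liver, lung, gut and pancreas. Foxa1 had 25.4 and 11.4 RPKM in WT and 18.4 and 9.82 RPKM in Aire-KO. These groups overlapped, and the larger gap was between the experiments. Foxa2 had 1.99 and 2.72 RPKM in WT and 0.752 and 0.92 RPKM in Aire-KO, without overlap, with a log2 fold change of 1.49 (SE 0.49, edgeR, adjusted p = 0.132; 0.0273 with the block; 0.0273 to 0.602 over the alternatives). Foxa3 stood at 1.31 and 2.22 RPKM in WT and 1.23 and 1.24 in Aire-KO and was not called (adjusted p = 0.67). Of 16 factors that act beside Foxa genes, Cdx2, Hnf4a, Pdx1 and Nkx2-1 were higher in WT (log2 fold change 5.09, 2.57, 6.42 and 4.07) and 0 were lower, with a median of 0.65. With the block 6 were higher and 3 lower. Of all genes 6.47% were called higher and 0.286% lower, and 15.6% and 9.35% with the block. Pdx1, the pancreatic factor, had 103 and 63 counts in WT and 0 and 2 in Aire-KO.

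Foxe1, the thyroid factor, had 0.578 and 0.502 RPKM in WT and 0.384 and 0.304 in Aire-KO and was not called (adjusted p = 0.712), nor was Foxe3. Of 12 partners of these genes in thyroid and lens, 4 were higher in WT and 0 lower (median 2.08), and 5 and 0 with the block. Among them were Cryaa, a lens crystallin (log2 fold change 6.29), and the transcription factors Pax8 (4.19) and Nkx2-1 (4.07). Foxh1, which carries Nodal signals with Smad proteins, differed little, at 3.70 and 6.18 RPKM in WT and 4.59 and 5.12 RPKM in Aire-KO (log2 fold change 0.02, SE 0.46, adjusted p = 0.988). Of 10 genes of its pathway, 3 were higher in WT, among them Lefty2 and Lefty1 (log2 fold change 6.99 and 2.37), and 0 were lower (median 1.54). With the block 6 were higher and 2 lower, Smad2 and Smad3, which carry the signal (log2 fold change −0.80 and −0.88, adjusted p = 0.308 and 0.226; 0.0155 and 0.0112 with the block). Lefty2, a Nodal antagonist, had 5607 and 2580 counts in WT and 30 and 36 in Aire-KO. Foxl2, the granulosa cell factor of the ovary, had 95 and 22 counts in WT and 7 and 40 in Aire-KO (adjusted p = 0.518). The WT libraries were above the Aire-KO libraries in CPM by a narrow margin in the replicate experiment (0.252 against 0.242). Of 10 ovary genes tested, 1 was higher, the steroid factor Nr5a1 (log2 fold change 3.97), and 0 were lower (median 0.86). With the block 3 were higher and 1 was lower, Inhbb. Of 11 Hedgehog genes, which act upstream of several Fox genes, the ligands Ihh and Shh were higher (3.10 and 3.88) and 0 were lower, with a median of 0.01, and the block added Gli3 as lower. These list counts stand beside 6.47% of all genes called higher and 0.286% lower, and 15.6% and 9.35% with the block.

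The most abundant forkhead transcripts had the opposite direction. Foxp4, a transcriptional repressor of lung and gut epithelium, headed the order with 62.0 and 62.8 RPKM in WT and 101 and 100 RPKM in Aire-KO. Foxn1, the factor that establishes thymic epithelium, came next with 43.2 and 45.6 RPKM in WT, a mean of 44.4 ± 1.72 (SD, n = 2), and 78.8 and 81.5 RPKM in Aire-KO, a mean of 80.2 ± 1.92. For each gene both WT libraries were below both Aire-KO libraries, as for 20.9% of all genes tested. The log2 fold changes were −0.69 for Foxp4 (SE 0.35) and −0.85 for Foxn1 (SE 0.35), and with genotype alone neither passed (edgeR, adjusted p = 0.34 and 0.232). With the block both were called lower in WT (0.0328 and 0.0118), and 0 other alternatives called either (highest adjusted p 0.842 and 0.727). Foxn1 reads followed the transcript, with 59.0 to 64.3% in coding exons before the last in every library. Of 14 genes of the Foxn1 programme and thymus development, 0 were called, with a median of −0.21. The members of smallest p were Tbata and Cd83 (log2 fold change −1.20 and −0.98, adjusted p = 0.125 and 0.176). With the block 3 were lower (Tbata, Cd83 and Ccl25) and 1 higher, the Notch ligand Dll4.

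Foxs1 and Foxd3 held the largest differences on that side. Foxs1, expressed in pericytes and sensory neurons, had 11.5 and 20.1 RPKM in WT and 38.3 and 50.5 RPKM in Aire-KO (log2 fold change −1.49, SE 0.43, adjusted p = 0.096; 0.00104 with the block; 0.00104 to 0.337 over the alternatives). The 4 matrix genes named above were lower in WT too. Of the pericyte and smooth muscle markers, Cspg4 had a log2 fold change of −1.63 (edgeR, adjusted p = 0.0614; 0.00115 with the block). Rgs5, Pdgfrb, Kcnj8 and Acta2 had −0.13 to −0.04 and were not called. Their part in the Foxs1 level was not tested. Foxd3, a factor of pluripotent cells and neural crest, had 7.59 and 5.36 RPKM in WT and 28.6 and 13.2 RPKM in Aire-KO (log2 fold change −1.69, SE 0.49, adjusted p = 0.0998; 0.00126 with the block; 0.00126 to 0.376 over the alternatives). For both genes every Aire-KO library was above every WT library, as for 20.9% of all genes tested. DESeq2 called both (adjusted p = 0.0202 and 0.0111). Foxd4, which shares stretches with Foxd3, had 0.269 and 0.278 RPKM in WT and 0.399 and 0.0931 in Aire-KO, far below Foxd3 in each library.

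The broadly expressed Foxj, Foxk and Foxn genes made up the rest. Foxj2, a transcriptional activator, had 14.4 and 8.79 RPKM in WT and 28.1 and 19.8 RPKM in Aire-KO, and its relative Foxj3 had 11.8 and 7.10 against 17.9 and 12.1 RPKM. Foxk1, a repressor of autophagy and starvation genes, had 6.51 and 5.52 RPKM against 14.1 and 11.7, and Foxk2 had 12.9 and 12 against 16.4 and 19.9. All 4 were lower in both WT libraries, without overlap, as were 20.9% of all genes tested. Foxn3, a repressor of cell cycle and metabolic genes, had 7.92 and 6.37 RPKM in WT and 23.2 and 11.8 RPKM in Aire-KO. Foxn2, whose role is less well known, had 10.8 and 4.21 RPKM against 19.4 and 6.13, and its groups overlapped. With genotype alone none was called, with log2 fold changes of −1.29 to −0.54 and adjusted p of 0.137 to 0.631. With the block Foxj2, Foxj3, Foxk1, Foxn2 and Foxn3 were called lower in WT (adjusted p = 0.0035 to 0.0345) and Foxk2 was not (0.0854). Their highest adjusted p over the alternatives was 0.636 to 0.966.
The scaling bears on this side. With the block and library sizes alone, an alternative chosen after the values were seen, 5 of the 9 genes were lower in WT (Foxd3, Foxj2, Foxk1, Foxn3 and Foxs1), while Foxn1, Foxp4, Foxj3 and Foxn2 had adjusted p of 0.0668, 0.199, 0.21 and 0.172. That fit called 8 forkhead genes higher, and of all genes it called 22.5% higher and 4.37% lower.

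None of the Foxo genes, which insulin and growth factor signals hold in the cytoplasm, was called between genotypes. Foxo4 had 9.15 and 11 RPKM in WT and 10.3 and 10.6 RPKM in Aire-KO. Foxo3 had 9.51 and 9.68 RPKM against 15.4 and 9.25, and Foxo1 had 5.85 and 4.51 against 6.75 and 4.73. Groups overlapped for all 3, with adjusted p of 0.712 to 0.962. Foxo6, a brain and liver member, was lower in level, at 0.88 and 0.855 RPKM in WT and 0.247 and 0.669 in Aire-KO, without overlap (log2 fold change 0.92, SE 0.66, adjusted p = 0.527). Of 19 genes under Foxo control, 1 was higher in WT, G6pc, a gluconeogenic enzyme (log2 fold change 2.31), and 0 were lower (median −0.22). With the block 2 were higher and 2 lower. Of 10 genes of the signalling that controls Foxo, 0 were called (median −0.69), with smallest p for Sgk1 and Stk4 (log2 fold change 1.55 and −0.72, adjusted p = 0.0713 and 0.337). With the block 1 was higher and 6 were lower. Foxm1, the activator of mitotic genes, had 4.95 and 2.50 RPKM in WT and 4.35 and 3.43 in Aire-KO (adjusted p = 0.967). Of 16 mitotic genes 0 were called with or without the block (median 0.13), and the smallest p belonged to Ccnb1 and Cenpa (adjusted p = 0.563 and 0.586).

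Foxq1, of hair and gut, had 18.6 and 17.4 RPKM in WT and 22.4 and 18.1 RPKM in Aire-KO, and Foxc1, of the eye and vessels, had 5.28 and 2.48 against 3.30 and 2.40. Both overlapped between genotypes (adjusted p = 0.868 and 0.715), and Foxq1 changed sign with library sizes alone. Exons of A530084C06Rik on the opposite strand share 1164 bp with those of Foxq1. The library kit does not mark strand, so this level may hold reads of either gene. Exons of Foxb1, Foxe1, Foxj2 and Foxo1 likewise share 102 to 674 bp with a gene on the opposite strand, and those of Foxd3, Foxk2, Foxm1 and Foxp1 share 26 to 144 bp with a gene on the same strand. The members not yet described, Foxb2, Foxd2, Foxf2, Foxp1 and Foxp2, lay between 0.0421 and 3.07 RPKM, and none was called.

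Foxp3, the factor of regulatory T cells, drew nearly all of its reads from its last exon. It had 781 and 473 counts in WT and 501 and 1443 in Aire-KO, or 1.29 and 1.41 against 1.27 and 2.28 RPKM, with overlap (log2 fold change −0.40, SE 0.47, adjusted p = 0.739). The coding exons before the last, 1146 bp together, held 13, 2, 6 and 0 reads over the 4 libraries (WT first and replicate, then Aire-KO first and replicate). The last exon, of 2344 bp, held 767, 471, 491 and 1438 reads, which is 98.2 to 99.7% of the reads of the gene. Per bp, the coding exons therefore held 0.0347, 0.00869, 0.025 and 0 of the density of the last exon. In the WT library of the first experiment this was the lowest of the 22 forkhead genes in which both parts are at least 100 bp long, followed by Foxo1 at 0.163, and Foxn1 stood at 0.699. In other libraries Foxi3, Foxr1 and Foxi1, which have few reads there, also reached 0. The Foxa genes were left out of this count, because their coding exons before the last are 69 to 72 bp long, little over the read length, and Foxa2 and Foxa3 have 0 reads there in some libraries. The last exon, at the start of which the helix printed above lies, overlaps exons of Ccdc22 over 590 bp and transcripts of Ppp1r3f over 373 bp, both on the opposite strand. Another gene, 4930524L23Rik, shares 267 bp of exon on the same strand, all of it outside the last exon. Ccdc22 had 12.4 and 16.8 CPM in WT and 13.2 and 27.3 in Aire-KO, and Ppp1r3f had 6.79 and 6.64 against 7.93 and 8.58. Without strand, reads of Foxp3 and of these genes cannot be told apart there.
T cell markers were present at low levels. The 12 markers summed to 50.9 and 85.5 CPM in WT and 44.2 and 55.6 in Aire-KO, with 1 higher in WT, Cd3g (log2 fold change 2.55), 0 lower, and Rag2 at 0 in at least 1 library (median 1.3). With the block 5 were higher. Of 10 genes typical of regulatory T cells, Gpr83 and Itgae were higher in WT (5.92 and 2.89) and Ctla4 was lower (−3.87; median −0.01), with Tnfrsf4 lower as well under the block. Ctla4, an inhibitory receptor, had 2713 and 1299 counts in WT and 32175 and 25653 in Aire-KO. These cells carry CD45, against which the sort selected. Their part in the Foxp3 level was not tested.

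**Figure D3:**
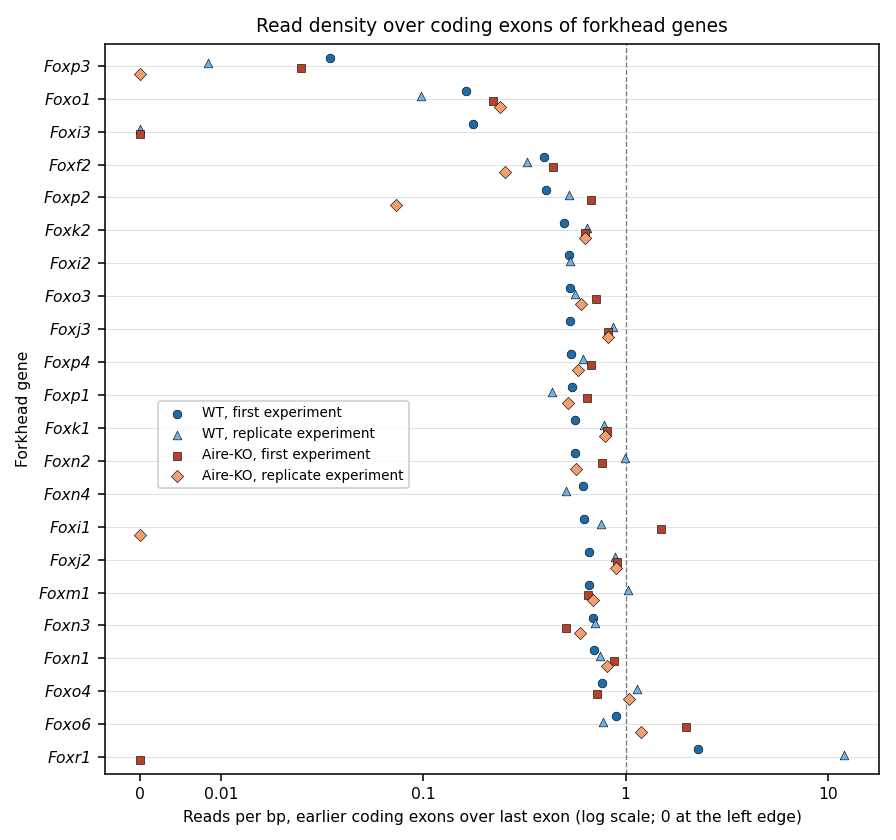
Reads per bp in the coding exons before the last, divided by reads per bp in the last exon (up to the proximal polyadenylation site where 1 is annotated), for the 22 forkhead genes in which both parts are at least 100 bp long; log axis, 1 point per library, values of 0 at the left edge and no point where the last exon has no read. Foxp3 lies at 0.0347 or lower in every library, while Foxn1 lies between 0.699 and 0.88.

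Markers of other cells of the thymus were also measured. Cortical epithelium carries Ly51 and dendritic cells and macrophages carry CD45, so the sort selected against both. Of 6 cortical epithelial markers, 1 was higher in WT, Enpep (log2 fold change 2.66), and 0 were lower (median 0.52). Of 8 dendritic cell and macrophage markers, Cd209a and Adgre1 were higher (5.22 and 3.19) and 0 lower (median 0.91), and Fcer1g was lower with the block. Of 6 endothelial markers 0 were called (median −0.79), with smallest p for Emcn and Kdr (adjusted p = 0.397 and 0.448). The 12 mTEChi markers gave 0 calls, with a median of −0.47 and the smallest p for Aire and Tnfrsf11a (adjusted p = 0.0888 and 0.255), and 5 lower with the block. Over all genes 6.47% were called higher and 0.286% lower, and 15.6% and 9.35% with the block. The marker counts are therefore a description only. Whether the shifts in these markers bear on any forkhead gene was not tested.

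The 2 experiments were also compared with each other. This comparison was chosen after the values were seen and used the block fit, which sets the replicate against the first experiment within genotypes. Of the 43 forkhead genes, 6 were lower in the replicate experiment and 0 higher, where 12.3% of all genes were called lower and 7.0% higher. The count of lower genes is thus near the share of all genes and is a description only. Foxp2, a factor of speech circuits and lung, had 577 and 520 counts in the first experiment (WT, Aire-KO) and 95 and 47 in the replicate, a 7.60-fold difference (adjusted p = 0.0142). Foxn2 was 2.85-fold lower (0.00191) and Foxa1 2.04-fold (0.00799). Foxd3 was 1.76-fold lower (0.0375) and Foxj3 1.57-fold (0.0476). In every case both genotypes moved the same way. With library sizes alone, 5 were lower and 1 was higher, since Foxj3 no longer passed (0.0546) and Foxs1 was higher in the replicate (0.0477). Foxn1 and Foxp4 differed little between experiments, with first-over-replicate ratios of 0.947 and 0.988 in WT and 0.967 and 1.01 in Aire-KO. Leaving out the Aire-KO library of the first experiment turned the Foxp2 log2 fold change between genotypes from −0.17 to 3.05 (adjusted p = 0.0033).

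**Figure D4:**
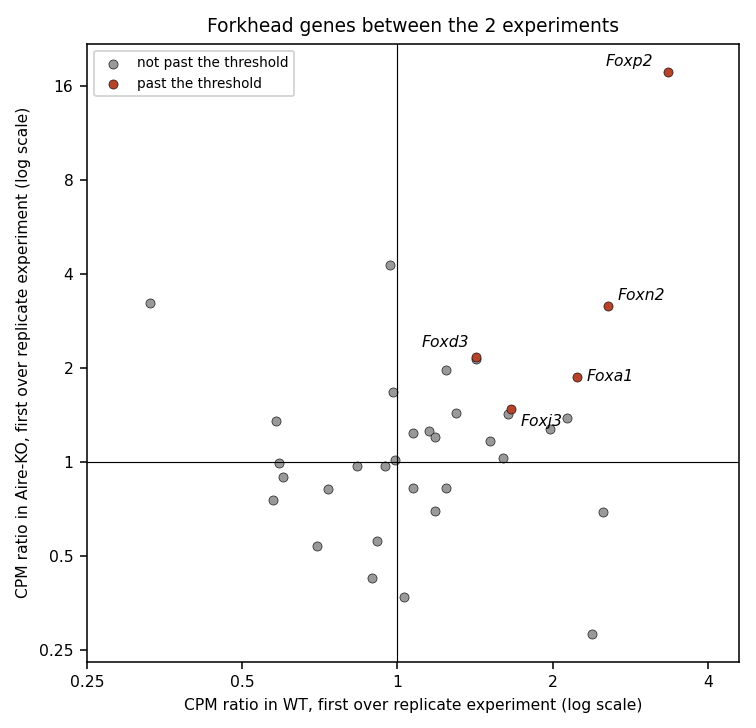
CPM ratio of the first over the replicate experiment for the forkhead genes shown that have reads in all 4 libraries, WT on the x axis and Aire-KO on the y axis (both log). The 5 red genes were lower in the replicate experiment in both genotypes, from Foxj3 (1.66 and 1.48) to Foxp2 (3.35 and 17.8).

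The study's own measure is the d3′UTR ratio, the read density downstream of a proximal polyadenylation site over that of the upstream part of the last exon, where a low ratio means few long 3′UTR transcripts. It could be set for 12 forkhead genes with at least 20 reads over both parts in every library. Their medians were 0.808 and 0.685 in WT and 0.667 and 0.467 in Aire-KO, against 0.434 and 0.352 and 0.41 and 0.333 over all genes with a ratio. Those genes numbered 6178 to 6379 per library and were not held to the 20 reads, a filter that 5953 genes passed, so the 2 sets are not strictly alike. Foxi1, the only 1 of the 4 called genes with a d3′UTR, had ratios of 1.20 and 1.05 in WT and 0.914 and 0.582 in Aire-KO, of which the first Aire-KO value rests on 13 and 17 reads in its parts. Foxp4, the most abundant member, had 0.323 and 0.256 against 0.248 and 0.276, and Foxp2 ranged from 0 to 0.508.
A change in usage with genotype was tested as the interaction of region and genotype (edgeR). No forkhead gene and 0 of 5953 genes were called, and 99 genes (1.66%) had an unadjusted p under 0.05. Of the forkhead genes, 3 had an unadjusted p under 0.05, among them Foxc1 and Foxa1 (0.0348 and 0.0492). Foxc1 had ratios of 0.873 and 1.25 in WT and 0.605 and 0.335 in Aire-KO (log2 difference 1.21, SE 0.43), and Foxa1 had 2.00 and 1.59 against 1.20 and 1.17 (0.59, SE 0.23). Both genes were named for their small p, so having both WT ratios above both Aire-KO ratios is not a separate result. The direction was higher in WT for 11 of 12 forkhead genes and for 60.0% of all genes tested. With the block, 0 genes were called, 5.61% had an unadjusted p under 0.05, and both had an adjusted p of 0.872.

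**Figure D5:**
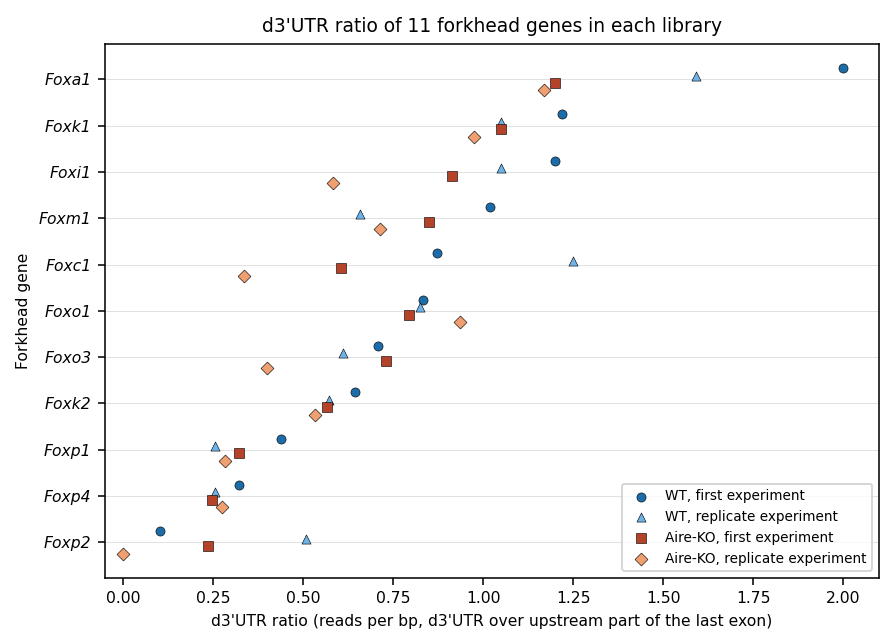
d3′UTR ratio of 11 forkhead genes (linear axis), 1 point per library, blue for WT and red to orange for Aire-KO. Ratios run from 0 in Foxp2 to 2.00 in Foxa1. Foxa1 and Foxc1, named for their small p, are among the genes with both WT points to the right of both Aire-KO points.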

How the data were processed

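Reads of polyA-selected libraries from sorted mTEChi were reduced by the authors to single-end reads of 50 bp, filtered with CASAVA, mapped to mm9 with Bowtie 1.0.0 and counted with bedtools, per RefSeq ID and per part of each transcript, when they lay wholly inside an exon. The deposited values are raw counts without normalization. The kit version and HiSeq model differ between the methods and the labels.

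Of 30794 RefSeq IDs, 30212 (98.11%) were matched to a symbol and 582 were not. Counts of 1 RefSeq ID per gene were tested with edgeR 4.0.16 (R 4.3.3), using TMM factors (0.853 to 1.146), filterByExpr, the quasi-likelihood test and genotype as the only term. The threshold was an adjusted p of 0.05 (Benjamini and Hochberg) over all genes. DESeq2 1.42.0 was an alternative. SE was taken from the log2 fold change and F. Levels are RPKM on effective library sizes. Counting intervals and floors (3 counts) cover counting error only. The test made 4 false calls among 20074 unchanged genes in simulated counts, and the usage test recovered 76% of 4-fold changes. These 4-fold changes were placed only in genes with more reads than the usage test required. The share therefore does not cover genes with few reads.

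The experiment served as a block because each held 1 library per genotype, and deviations from the genotype means correlated at 0.516 over 20274 genes. Libraries of a genotype correlated at 0.953 and 0.964 (log CPM) and are not copies. The members and lists were chosen with earlier results of these data known. Named were the called genes, those at 0 in both Aire-KO libraries and those at 5 RPKM or more in a library, and up to 4 called genes (or 2 of smallest p) per list. Values of 1 forkhead gene and 4 list members are not reported here, although counts include them. Others were added after their values were seen. Of the 43 genes, 28 had an entry in the promoter table, too few for a check of promoters, and protein sequences were not used. Helix sequences were read from GENCODE vM1 coding sequences.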

Additional observations from a re-analysis of the deposited data

How the results depend on the processing

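With 2 pools per genotype, a gene that was not called may still differ. Most calls on the Aire-KO side came with the block. Forkhead genes called higher in WT numbered 4, and 7 with the replicate block, 7 with DESeq2, 8 with the block and library sizes alone, and 3 to 9 when 1 library was left out (9 without Aire-KO replicate 1, which added Foxe3, Foxf1, Foxi3, Foxp2 and Foxr1). Those called lower numbered 0, and 9 with the replicate block, 2 with DESeq2, 5 with the block and library sizes alone, and 0 to 1 without a library (Foxd3, without Aire-KO replicate 2). The 4 called genes all kept their call in 9 of 11 alternatives, and Foxl1 lost it without either WT library. The log2 fold change of Foxp2, −0.17, lay between −1.31 and 3.05 when 1 library was left out, reversed and past the threshold without Aire-KO replicate 1. Partner genes called higher numbered 22, and 38 with the block, 35 with DESeq2 and 13 to 38 without a library. Those lower numbered 0, and 19, 3 and 0 to 2. Markers called higher numbered 6, and 10 with the block and 3 to 11 without a library. Those lower numbered 5, and 15 with the block, 9 with DESeq2, 2 with library sizes alone and 1 to 7 without a library. Over all genes, 1312 were called higher and 58 lower, against 3164 and 1895 with the block, 2818 and 458 with DESeq2 and 2194 and 48 with library sizes alone. The count of forkhead genes at 1 RPKM in every library stayed at 23 without the d3′UTR, the count that differed between experiments was 6 with either scaling, and usage gave 0 calls in each alternative. Where counts moved, the cause was not tested.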
